A study of Mus musculus with 13 samples.

Results

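The p53 genes described here are Trp53 itself, its relative Trp73, regulators that hold p53 in check, and well-known targets that p53 switches on. They were taken by symbol from a list of 33 genes, and all 33 were found among the 21100 genes of the count table. Expression was measured by poly(A) RNA sequencing in 13 basal cell carcinomas (BCC) of female mice, 9 from a genetically engineered model (GEM-BCC) and 4 from a transplanted model (Tp-BCC), and the question was how the transplanted tumors differ from the engineered ones. Total expected counts per tumor ran from 28075317 to 32629102 in GEM-BCC and from 15388027 to 17494912 in Tp-BCC.

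GEM-BCC tumors grew intradermally in Ptch1+/- K14-CreER2 p53fl/fl mice that were given tamoxifen in 3 intraperitoneal injections of 300 µg and 4 Gy of X-rays. Tp-BCC tumors grew under the skin of the right flank in Ptch1+/-p53fl/fl mice, which carry no Cre, from inocula of 2000000 tumor cells. The cells came first from a GEM-BCC tumor and were then passaged serially, from one transplanted tumor to the next host, and the passage of the sequenced tumors is not given in the sources used here. Hosts of both models share the Ptch1+/- and p53fl/fl alleles, and ages are not given in the sources used here. Cre was driven by the K14 promoter, so the floxed p53 alleles can recombine only in keratin 14-expressing cells and their descendants, while fibroblasts, vessels and immune cells of either host keep them intact. All 4 Tp-BCC tumors came from 1 GEM-BCC tumor, and the 9 GEM-BCC tumors came from 7 mice, tumors 2 and 3 from one mouse and tumors 7 and 8 from another. The labels put every GEM-BCC tumor in batch 1 and every Tp-BCC tumor in batch 2, and by the study's account the split covers sampling, extraction and sequencing, so model and batch cannot be told apart in any comparison below.

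The p53 protein is a transcription factor that is kept low by the ubiquitin ligase Mdm2 and its partner Mdm4 and is stabilized after DNA damage or oncogene activity. It then raises genes that stop the cell cycle, first of all Cdkn1a, which encodes the inhibitor p21, and genes that promote apoptosis, DNA repair and metabolic adaptation, and it raises Mdm2, which closes a feedback loop. In skin, p53 responds to ultraviolet and ionizing radiation, and its loss together with that of Ptch1, which restrains Hedgehog signaling, is used to model BCC in mice.

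Trp53, the main p53 target Cdkn1a and the feedback genes Mdm2 and Ccng1 are shown by the sequence at their starts, since each is a known gene of the p53 loop. A promoter window of Cdkn1a and those of Trp53, Mdm2 and Ccng1 each held a match to the p53 half-site consensus, the element that p53 binds in pairs. Each window is shown 5′ to 3′ on the strand of its gene, from 250 bases before the annotated start to 50 bases from it on, with matches in capitals. The sequences are from RefSeq on GRCm38.p6, whereas the counts were made on GRCm39, so the positions serve only to locate the windows. They lie at chr17:29090729-29091028 on the + strand for Cdkn1a, chr11:69580109-69580408 on the + strand for Trp53, chr10:117710709-117711008 on the - strand for Mdm2 and chr11:40755237-40755536 on the - strand for Ccng1.
Cdkn1a: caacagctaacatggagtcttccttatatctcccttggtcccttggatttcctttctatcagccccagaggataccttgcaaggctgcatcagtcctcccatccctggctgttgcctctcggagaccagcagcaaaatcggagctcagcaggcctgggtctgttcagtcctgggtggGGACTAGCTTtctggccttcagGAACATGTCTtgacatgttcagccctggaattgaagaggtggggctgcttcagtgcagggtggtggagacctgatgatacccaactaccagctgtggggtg
Trp53: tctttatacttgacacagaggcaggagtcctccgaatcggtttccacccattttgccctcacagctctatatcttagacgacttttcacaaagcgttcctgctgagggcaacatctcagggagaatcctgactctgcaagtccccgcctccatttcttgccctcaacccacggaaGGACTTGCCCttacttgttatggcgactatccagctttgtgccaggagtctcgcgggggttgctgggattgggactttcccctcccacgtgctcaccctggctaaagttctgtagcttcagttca
Mdm2: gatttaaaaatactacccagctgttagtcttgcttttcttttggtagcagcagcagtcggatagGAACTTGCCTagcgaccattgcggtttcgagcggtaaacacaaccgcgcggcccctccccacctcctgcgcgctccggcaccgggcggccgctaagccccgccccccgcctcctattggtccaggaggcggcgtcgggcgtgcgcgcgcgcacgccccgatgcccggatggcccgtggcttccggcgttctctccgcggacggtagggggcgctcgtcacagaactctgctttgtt
Ccng1: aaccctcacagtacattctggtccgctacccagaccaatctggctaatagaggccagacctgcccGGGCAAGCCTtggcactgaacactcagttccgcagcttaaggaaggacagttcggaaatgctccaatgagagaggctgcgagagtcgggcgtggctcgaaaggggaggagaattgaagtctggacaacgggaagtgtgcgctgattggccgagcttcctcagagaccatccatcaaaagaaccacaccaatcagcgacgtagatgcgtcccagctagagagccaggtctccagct

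The Cdkn1a window shown held 2 matches, whose first bases lay at -73 and -51 from the start, with 12 bases between them. The window of its other annotated start, downstream at chr17:29093519-29093818 and not shown, held none. The match began at -75 in Trp53, at -186 in Mdm2 and at -185 in Ccng1. A single match is a half-site and not the full pair, and binding of p53 was not measured. The motif reads the same on both strands, so each match was counted once. Of the 33 p53 genes, 27 had a window, and 12 of these (44.4%) held at least 1 match in any of their windows, against 9.55% of all 27025 genes with a window, and 0.392% of those genes held 2 or more in a window. Besides the 4 genes shown, the matches were in Ppm1d, Gadd45a, Bax, Aen, Ckap2, Ei24, Sesn1 and Polk. Of the genes whose level differed between the models (below), Eda2r and Tigar had no match in their windows, which says only that these letters are not in this stretch. Trp53inp1, Pmaip1, Tnfrsf10b, Ddb2, Zmat3 and Rrm2b had no window.

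The 4 Tp-BCC libraries fell into pairs by the base composition of the transcripts. Across 14279 genes, the Spearman correlation between a transcript's GC content and its log2 CPM, counts scaled to a common library size, relative to the mean of the 13 tumors was 0.593 in Tp-BCC 2 and 0.589 in Tp-BCC 4, but -0.390 in Tp-BCC 1 and -0.472 in Tp-BCC 3. These are correlations across genes, which are not independent replicates. Among GEM-BCC tumors it was 0.363 in tumor 1 and between -0.310 and -0.150 in the other 8. Since the pairs were set by this trend, how p53 genes differ between them by GC content is a description of the split. p53 genes of low GC content lay lower in tumors 2 and 4, by log2 differences of -4.42 for Polk, -3.43 for Trp53inp1, -3.27 for Rrm2b and -3.06 for Mdm4. GC-rich genes lay higher there, by 1.42 for Phlda3 and 1.10 for Bbc3. Of the 32 p53 genes that could be tested, 11 (34.4%, against 26.8% of all tested genes) lay lower by more than 1 log2 unit in tumors 2 and 4 and 6 (18.8%, against 13.3%) lay higher by that much. The source of this split was not tested.

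**Figure D1:**
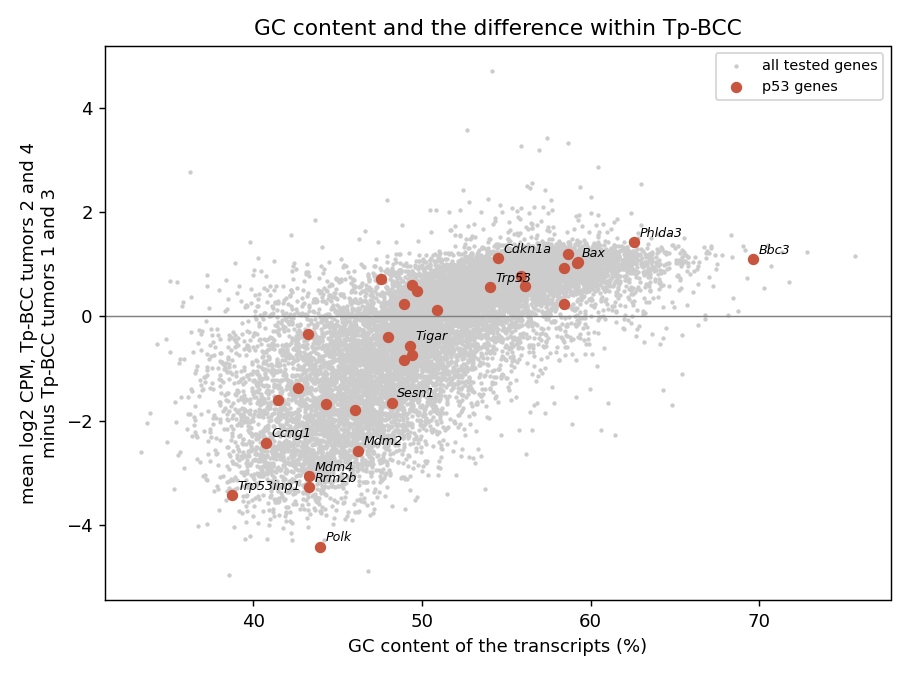
Difference in mean log2 CPM between Tp-BCC tumors 2 and 4 and Tp-BCC tumors 1 and 3 (vertical axis) against the median GC content of each gene's protein-coding transcripts in percent (horizontal axis), for all tested genes (gray) and the p53 genes (red). The p53 genes run from -4.42 for Polk to 1.42 for Phlda3 along the trend of all genes.

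Basal keratinocyte markers (Krt5, Krt14, Krt17, Epcam and Trp63) summed to 11054 to 16795 CPM in GEM-BCC and to 8351, 15337, 7714 and 19855 CPM in Tp-BCC 1 to 4. Krt5 was the most abundant, and both models thus carried the markers of a keratinocyte tumor. Of 8 fibroblast markers, with Col1a2 the most abundant on average in GEM-BCC and Col3a1 in Tp-BCC, 1 was lower and 2 were higher in Tp-BCC, with sums of 29379 ± 10631 CPM (SD, n = 9) in GEM-BCC and 20573 ± 6531 CPM (SD, n = 4) in Tp-BCC. Of 6 endothelial markers, with Pecam1 the most abundant on average in GEM-BCC and Cdh5 in Tp-BCC, 2 were higher in Tp-BCC, and the sum was 75.6 to 211.9 CPM in GEM-BCC against 253.8, 284.4, 253.7 and 229.8 CPM in Tp-BCC 1 to 4. Of 9 tested immune markers, with Lyz2 the most abundant on average in both models, 1 was lower and 1 was higher, and the sum was 66.3 to 331 CPM in GEM-BCC against 182.6, 172, 188.5 and 340.4 CPM in Tp-BCC. All 3 tested adipocyte markers were higher in Tp-BCC. Fabp4 was the most abundant on average in both models, with sums of the list of 0.400 to 3.26 CPM in GEM-BCC and 10.5, 82.0, 10.4 and 14.8 CPM in Tp-BCC. Skeletal muscle markers summed to 2.52 to 8.44 CPM in GEM-BCC and 7.36, 20.6, 7.06 and 156.9 CPM in Tp-BCC, with 1 of 3 tested genes, Des, higher. Of this list, Acta1 was the most abundant in Tp-BCC 4 alone, at 79.5 CPM, and lay at 0.177, 5.40 and 0.239 CPM in Tp-BCC 1 to 3, where Des was the most abundant. Differentiated keratinocyte markers, with Krt10 the most abundant in every tumor, summed to 9.74 to 154.9 CPM in GEM-BCC and 7.54, 7.97, 7.84 and 9.85 CPM in Tp-BCC, with 1 of 4 lower; Flg was not analysed here. The part that these cells play in the differences below was not tested. In bulk tumor RNA, fewer cells of a type and less RNA per cell cannot be told apart.

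Of the 33 p53 genes, 32 passed the count filter, at least 10 counts in at least 4 tumors. Gdf15, a secreted stress factor, did not, with 1 to 11 counts per tumor. By edgeR's quasi-likelihood F test with Benjamini-Hochberg adjustment over 14390 genes, 7 of the 32 had an adjusted p under 0.05, against a background of 19.4% of all tested genes, so the share of p53 genes, 21.9%, was near that of all genes. Trp53, Cdkn1a, Pmaip1, Eda2r, Trp53inp1 and Sesn1 were lower in Tp-BCC (6 genes, background 8.35%) and Tigar was higher (1 gene, background 11.1%). With the study's fold threshold, an absolute log2 fold change above 2, Pmaip1 and Trp53inp1 remained, 2 genes against a background of 5.57%. The study shrank its DESeq2 fold changes, whereas the threshold was applied here to edgeR fold changes. The median log2 fold change of the 32 genes was -0.23, and that of all tested genes -0.03. Of the 32, 22 had a negative fold change (68.8%, against 51.4% of all tested genes) and 10 a positive one. The models did not overlap in 4 genes, Cdkn1a, Eda2r and Sesn1 below and Tigar above, where 9.95% of all genes did not overlap.

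The number of p53 genes called differed with the libraries used. Without Tp-BCC 2 and 4, 6 genes passed, when 10.4% of all tested genes did so: Trp53, Cdkn1a, Bbc3 and Trp53inp1 lower, and Ckap2 and Tigar higher. Without Tp-BCC 1 and 3, 15 passed, when 42.9% did so. Of these, Mdm2, Mdm4, Ppm1d, Ccng1, Pmaip1, Eda2r, Apaf1, Trp53inp1, Ddb2, Rrm2b, Polk and Sesn1 were lower (12 genes) and Aen, Phlda3 and Tigar higher (3 genes). With each tumor's GC trend taken into the offsets, 12 of the 32 passed, against 28.6% of all genes, 10 lower and 2 higher. With that correction and without Tp-BCC 2 and 4, 6 passed, against 10.8% of all genes: Trp53, Cdkn1a, Eda2r and Trp53inp1 lower and Ckap2 and Tigar higher. With it and without Tp-BCC 1 and 3, 14 passed, against 30% of all genes: Trp53, Mdm2, Mdm4, Cdkn1a, Ccng1, Eda2r, Trp53inp1, Rrm2b, Polk and Sesn1 lower (10 genes) and Plk2, Ckap2, Zmat3 and Tigar higher (4 genes). Trp53inp1 and Tigar were the 2 of the 7 that passed whichever pair was left out, with and without the correction, and all 7 passed after the correction with all tumors. The median log2 fold change of the 32 genes was -0.31 without Tp-BCC 2 and 4 and -0.014 without Tp-BCC 1 and 3, where it was -0.06 and -0.08 over all tested genes.

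**Figure D2:**
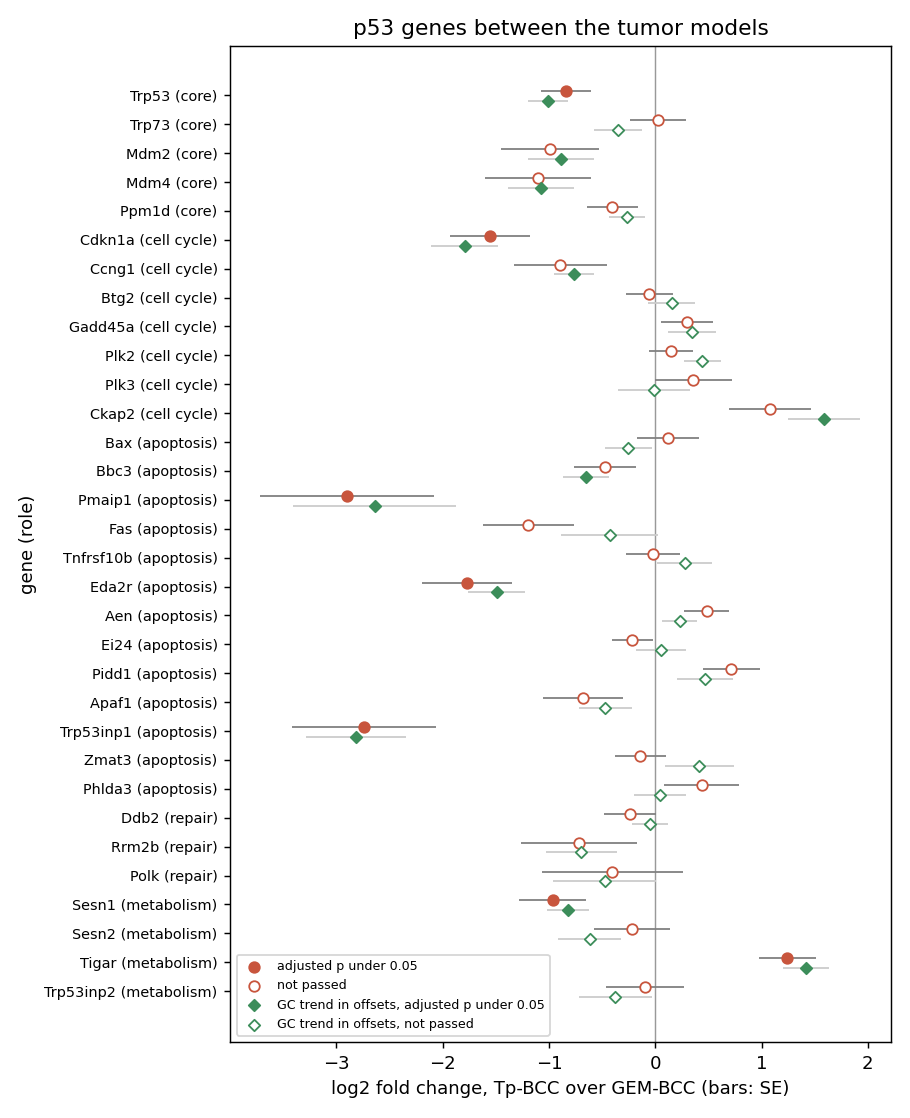
Log2 fold change of Tp-BCC over GEM-BCC (horizontal axis, bars are standard errors) for the 32 tested p53 genes, grouped by role (vertical axis), from counts as deposited (circles) and with each tumor's GC trend in the offsets (diamonds), filled where the adjusted p is under 0.05. Filled circles mark 7 genes and filled diamonds 12.

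Trp53 was expressed in every tumor. It stood at 29.9 to 61.7 CPM in GEM-BCC (median 41.6) and at 20.02, 28.3, 19.8 and 30.4 CPM in Tp-BCC 1 to 4. Tp-BCC 1 to 3 lay under all GEM-BCC tumors, and Tp-BCC 4 lay above GEM-BCC 4 alone, so the models overlapped. Counts were summed over the gene and cannot show whether exons between loxP sites were lost, so they check nothing about the deletion. Trp53 was lower in Tp-BCC by a log2 fold change of -0.84 ± 0.23 (SE; edgeR adjusted p = 0.0211). Without Tp-BCC 2 and 4 it was -1.15 (adjusted p = 0.0218), and without Tp-BCC 1 and 3 it was -0.58 and did not pass (adjusted p = 0.103). The range over all alternatives was 0.0017 to 0.486. For all 7 called genes the upper end came from a block on tumor number, fitted to tumors 1 to 4 of each model. In that fit 1.3% of all genes passed. The Trp53 call was also lost when Tp-BCC 1 (-0.75) or Tp-BCC 3 (-0.75) alone was left out (adjusted p = 0.0616 and 0.0537). After the GC correction it was -1.01 ± 0.19 (SE; edgeR adjusted p = 0.0017), and with that correction it also passed without Tp-BCC 1 and 3 (-0.98, adjusted p = 0.0153).

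Per kilobase of transcript, the means of the p53 family had the same order in both models, though not every tumor did. Trp63, the basal epidermal member of the family, stood at 152.2 ± 55.4 CPM per kilobase (SD, n = 9) in GEM-BCC and 85.5 ± 41.5 (SD, n = 4) in Tp-BCC. Trp73, which shares the DNA-binding domain of p53, stood at 33.9 ± 8.80 and 34.6 ± 13.9 CPM per kilobase, and Trp53 at 24.6 ± 5.85 and 13.7 ± 3.08. Trp73 and Trp53 in GEM-BCC, and Trp63 and Trp73 in Tp-BCC, differed by less than the sum of their SDs. In Tp-BCC 4, Trp63 (31.8 CPM per kilobase) lay below Trp73 (46.7), and Trp53 lay above Trp73 in GEM-BCC 6 (34.3 against 21.6) and, barely, in GEM-BCC 5 (28.94 against 28.84). Trp63 did not pass the test between models (log2 fold change -0.83, edgeR adjusted p = 0.112). It was -0.37 without Tp-BCC 2 and 4 (adjusted p = 0.548) and -0.43 with the GC correction (adjusted p = 0.237). Without Tp-BCC 1 and 3 it was -1.52 and passed (adjusted p = 0.0150). Trp73 did not pass either (log2 fold change 0.03, edgeR adjusted p = 0.953), and its sign turned in several alternatives.

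Mdm2, the ubiquitin ligase that removes p53 and is itself a p53 target, differed between the Tp-BCC pairs. It stood at 15.3 to 41.5 CPM in GEM-BCC (median 21.9) and at 18.6, 5.27, 21.7 and 2.07 CPM in Tp-BCC 1 to 4. Tumors 1 and 3 lay inside the GEM-BCC range and tumors 2 and 4 below it. The log2 fold change was -0.99 ± 0.46 (SE) and did not pass (edgeR adjusted p = 0.144). It was -0.24 (adjusted p = 0.648) without Tp-BCC 2 and 4 and -2.68 (adjusted p = 0.00048) without Tp-BCC 1 and 3, and these are the ends of the range over all alternatives. With the GC correction it was -0.89 ± 0.31 (SE; edgeR adjusted p = 0.0439), a call lost when Tp-BCC 2 and 4 were also left out (-0.38, adjusted p = 0.408).

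Mdm4, which binds and inhibits p53 without a strong ligase activity of its own, had the same order, with 116.9, 27.4, 145.3 and 8.78 CPM in Tp-BCC 1 to 4 against 124.8 to 240.1 CPM in GEM-BCC, so that tumor 3 alone lay inside the GEM-BCC range. With all tumors its log2 fold change was -1.10 and did not pass (edgeR adjusted p = 0.133). It was -0.29 (adjusted p = 0.430) without Tp-BCC 2 and 4 and -3.14 (adjusted p = 0.000155) without Tp-BCC 1 and 3, the ends of its range, and it also passed without Tp-BCC 3 alone (-1.65, adjusted p = 0.0432) and with the GC correction (-1.08, adjusted p = 0.0186), though not when Tp-BCC 2 and 4 were also left out (-0.58, adjusted p = 0.129). Ppm1d, the phosphatase that dampens the p53 response, did not pass with all tumors, at -0.40 (edgeR adjusted p = 0.245), and came just under the threshold without Tp-BCC 1 and 3 (-0.75, adjusted p = 0.0499, range over alternatives 0.0499 to 0.759).

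**Figure D3:**
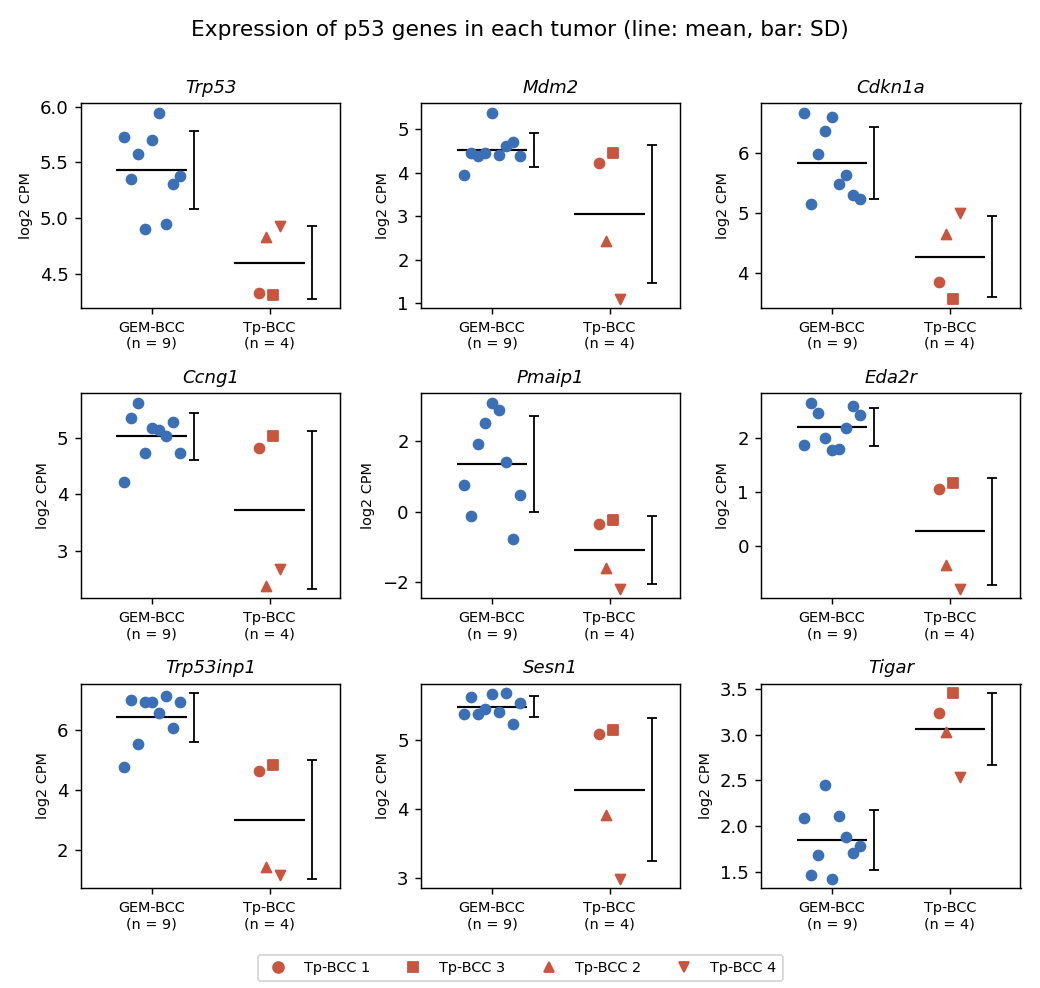
Log2 CPM (vertical axes) of Trp53, Mdm2, Cdkn1a, Ccng1 and the other 5 called genes in the 9 GEM-BCC tumors (blue) and the 4 Tp-BCC tumors (red), with the mean as a line and the SD as a bar. Tp-BCC 1 and 3 (circle and square) and Tp-BCC 2 and 4 (triangles) take separate symbols, and Tigar is the only one of these genes whose Tp-BCC values all lie above GEM-BCC.

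Among cell cycle genes, Cdkn1a, the p21 inhibitor of cyclin-dependent kinases, was lower in every Tp-BCC tumor than in any GEM-BCC tumor. It stood at 35.4 to 101.5 CPM in GEM-BCC (median 49.6) and at 14.3, 25.1, 11.8 and 32.0 CPM in Tp-BCC 1 to 4. Here the lowest values were those of tumors 1 and 3, the reverse of Mdm2. The log2 fold change was -1.56 ± 0.37 (SE; edgeR adjusted p = 0.0101). It was -2.23 (adjusted p = 0.0123) without Tp-BCC 2 and 4, and -1.10 without Tp-BCC 1 and 3, where it missed the threshold (adjusted p = 0.056), over alternatives that ran from 0.000232 to 0.151. With the GC correction it was -1.79 ± 0.32 (SE; edgeR adjusted p = 0.00114), and it then also passed without Tp-BCC 1 and 3 (-1.54, adjusted p = 0.0174).

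Ccng1, cyclin G1, a p53 target that in turn acts on Mdm2, stood at 18.6 to 49.4 CPM in GEM-BCC (median 35.3) and at 28.4, 5.08, 32.98 and 6.28 CPM in Tp-BCC 1 to 4. As for Mdm2, only tumors 2 and 4 lay outside the GEM-BCC range. The log2 fold change of -0.90 ± 0.44 (SE) did not pass (edgeR adjusted p = 0.159), and it was -0.15 (adjusted p = 0.783) without Tp-BCC 2 and 4 and -2.57 (adjusted p = 0.000219) without Tp-BCC 1 and 3, the ends of its range. With the GC correction it was -0.77 ± 0.19 (SE; edgeR adjusted p = 0.00757), a call lost when Tp-BCC 2 and 4 were also left out (-0.48, adjusted p = 0.138). The other 5 cell cycle genes, the antiproliferative factor Btg2, the stress sensor Gadd45a, the kinases Plk2 and Plk3 and the spindle protein Ckap2, had log2 fold changes from -0.06 (Btg2) to 1.08 (Ckap2), and none passed in edgeR on the counts as deposited with all tumors. Ckap2 was nearest (edgeR adjusted p = 0.0582), and its alternatives ran from 0.00384 to 0.536. It passed in DESeq2 (1.08), with the length correction (1.18), with counts summed per mouse (1.24), with the GC correction (1.59, adjusted p = 0.00384), without Tp-BCC 2 and 4 (1.52, adjusted p = 0.0199), and when Tp-BCC 2 (1.37) or GEM-BCC 3 (1.21) alone was left out, but not without Tp-BCC 1 and 3 (0.44, adjusted p = 0.470). Plk2, at 0.15 with all tumors, passed only with the GC correction and without Tp-BCC 1 and 3 (0.66, adjusted p = 0.0313, range 0.0313 to 0.996).

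Of 13 apoptosis genes, Trp53inp1, Eda2r and Pmaip1 were lower in Tp-BCC. Trp53inp1, which promotes p53 phosphorylation and autophagy, passed whichever Tp-BCC pair was left out. It stood at 27.1 to 141.6 CPM in GEM-BCC (median 121.2) and at 24.6, 2.64, 28.3 and 2.14 CPM in Tp-BCC 1 to 4. Tp-BCC 1, 2 and 4 lay under every GEM-BCC tumor, and Tp-BCC 3 lay above GEM-BCC 1 alone, so the models overlapped. Its log2 fold change was -2.74 ± 0.68 (SE; edgeR adjusted p = 0.0116), and it was -1.88 without Tp-BCC 2 and 4 (adjusted p = 0.0486) and -5.33 without Tp-BCC 1 and 3 (adjusted p = 0.000143), in alternatives from 3.07e-05 to 0.347. The call held in 27 of 28 alternatives, all but the block on tumor number. The GC correction gave -2.82 (adjusted p = 0.00072).

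Eda2r, a member of the TNF receptor family, stood at 3.34 to 6.18 CPM in GEM-BCC (median 4.45) and at 2.00, 0.707, 2.15 and 0.4998 CPM in Tp-BCC 1 to 4, with no overlap. Its log2 fold change was -1.77 ± 0.42 (SE; edgeR adjusted p = 0.00926). Without Tp-BCC 2 and 4 it was -1.15 and did not pass (adjusted p = 0.0678, range over alternatives 3.57e-05 to 0.228), though with the GC correction it passed there (-1.37, adjusted p = 0.0253), and without Tp-BCC 1 and 3 it was -2.92 (adjusted p = 0.000488).

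Pmaip1, which encodes the BH3-only protein Noxa, was a low-count gene with 16 to 298 counts in GEM-BCC and 12, 4, 13 and 2 counts in Tp-BCC 1 to 4. In CPM it stood at 0.511 to 8.51 (median 2.58) and at 0.706, 0.257, 0.778 and 0.143, and the models overlapped, since GEM-BCC 8 lay under Tp-BCC 1 and 3. The log2 fold change was -2.90 ± 0.82 (SE; edgeR adjusted p = 0.0225). The call was lost when Tp-BCC 2 (-2.74) or Tp-BCC 4 (-2.65) was left out (adjusted p = 0.0768 and 0.0718), and without both it was -2.29 (adjusted p = 0.188), within alternatives from 0.000479 to 0.231. Without Tp-BCC 1 and 3 it was -4.12 and passed (adjusted p = 0.0172). The GC correction kept the call with all tumors (-2.64, adjusted p = 0.0199) but not without Tp-BCC 1 and 3 (-2.69, adjusted p = 0.106) or without Tp-BCC 2 and 4 (-2.60, adjusted p = 0.136).

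The other 10 apoptosis genes did not pass in edgeR on the counts as deposited with all tumors. They were the channel-forming Bax and the BH3-only Bbc3, the death receptors Fas and Tnfrsf10b, the nuclease Aen, Ei24, the caspase platform genes Pidd1 and Apaf1, the RNA-binding Zmat3 and Phlda3, an inhibitor of Akt signaling. Their log2 fold changes ran from -1.19 (Fas) to 0.72 (Pidd1), with edgeR adjusted p = 0.0616 and 0.0707 for those 2. Both passed in DESeq2 and with the length correction, Fas also without GEM-BCC 1 (-1.34, adjusted p = 0.0299, range over alternatives 0.0176 to 0.799) and Pidd1 without GEM-BCC 8 (0.86, adjusted p = 0.0221, range 0.0221 to 0.817). Apaf1, at 19.6, 10.5, 19.99 and 3.00 CPM in Tp-BCC against 14.7 to 30.3 CPM in GEM-BCC, lay under the GEM-BCC range only in tumors 2 and 4. It was lower without Tp-BCC 1 and 3 (-1.65, adjusted p = 0.00742, range 0.00742 to 0.819). In the same setting Aen (0.75, adjusted p = 0.0226, range 0.0226 to 0.819) and Phlda3 (0.9953, adjusted p = 0.0376, range 0.0376 to 0.950) were higher, and neither passed with the GC correction. Zmat3, at -0.14 with all tumors, turned and passed with the GC correction and without Tp-BCC 1 and 3 (1.04, adjusted p = 0.0136, range 0.0136 to 0.991). Bbc3, the most GC-rich of the 32, did not pass with all tumors, at -0.47, but passed at -0.65 with the GC correction (edgeR adjusted p = 0.0385) and at -1.12 without Tp-BCC 2 and 4 (adjusted p = 0.0382), while without Tp-BCC 1 and 3 it was -0.020 (adjusted p = 0.963, the upper end of its range). The GC correction with either pair left out did not keep the call (-0.70 without Tp-BCC 2 and 4 and -0.59 without Tp-BCC 1 and 3, adjusted p = 0.154 and 0.149).

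With all tumors, none of the 3 repair and nucleotide genes passed in edgeR, at an unadjusted p (0 of 3) or in DESeq2: Ddb2, which recognizes ultraviolet lesions, Rrm2b, a ribonucleotide reductase subunit, and Polk, a translesion polymerase, had log2 fold changes of -0.24, -0.71 and -0.40. Rrm2b and Polk differed widely between the Tp-BCC pairs. Rrm2b stood at 6.58 to 16.9 CPM in GEM-BCC and 11.5, 1.22, 14.96 and 1.36 CPM in Tp-BCC 1 to 4, and Polk at 2.73 to 6.94 and 7.01, 0.579, 9.10 and 0.143 CPM. Without Tp-BCC 2 and 4 their log2 fold changes were 0.14 (adjusted p = 0.815) and 0.52 (adjusted p = 0.371). Without Tp-BCC 1 and 3 they had the opposite sign and passed, at -3.20 for Rrm2b (adjusted p = 0.000208, range over alternatives 0.000208 to 0.826) and -3.91 for Polk (adjusted p = 0.000417, range 0.000417 to 0.988), and they passed there with the GC correction too (-1.79 and -2.62). Ddb2 also passed without Tp-BCC 1 and 3 (-0.70, adjusted p = 0.0479, range 0.0479 to 0.903), but not with the GC correction there (-0.17).

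Of 5 metabolism and stress genes, Sesn1 was lower and Tigar higher. Sesn1, sestrin 1, an inhibitor of mTORC1 signaling, stood at 37.4 to 51.1 CPM in GEM-BCC (median 43.6) and at 33.7, 15.04, 35.02 and 7.85 CPM in Tp-BCC 1 to 4, with no overlap but little distance for tumors 1 and 3. The log2 fold change was -0.96 ± 0.31 (SE; edgeR adjusted p = 0.0425). The call was lost in 13 of 28 alternatives, among them the fit with counts summed per mouse, with a range from 0.000185 to 0.387. Without Tp-BCC 2 and 4 it was -0.38 (adjusted p = 0.184) and without Tp-BCC 1 and 3 -1.96 (adjusted p = 0.000185). The GC correction gave -0.82 (adjusted p = 0.00686), and -0.45 without Tp-BCC 2 and 4 (adjusted p = 0.0943). Leaving out 1 tumor ended it for Tp-BCC 2 (-0.83) and Tp-BCC 4 (-0.70). The same held for GEM-BCC 2 (-0.95), 4 (-0.97), 5 (-0.94), 6 (-0.98), 7 (-0.94) and 9 (-0.96).

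Tigar, a fructose bisphosphatase that slows glycolysis, was the 1 p53 gene that was higher, and it passed whichever Tp-BCC pair was left out. It stood at 2.60 to 5.37 CPM in GEM-BCC (median 3.36) and at 9.36, 8.10, 10.9 and 5.71 CPM in Tp-BCC 1 to 4, every one above GEM-BCC. Its log2 fold change was 1.24 ± 0.27 (SE; edgeR adjusted p = 0.00549), with 1.49 (adjusted p = 0.00936) and 0.95 (adjusted p = 0.0389) without the respective pairs, in alternatives from 5.64e-05 to 0.421. The Tigar call held in 27 of 28 alternatives, all but the block on tumor number. Sesn2, at -0.22, and the autophagy gene Trp53inp2, at -0.10, did not pass.

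**Figure D4:**
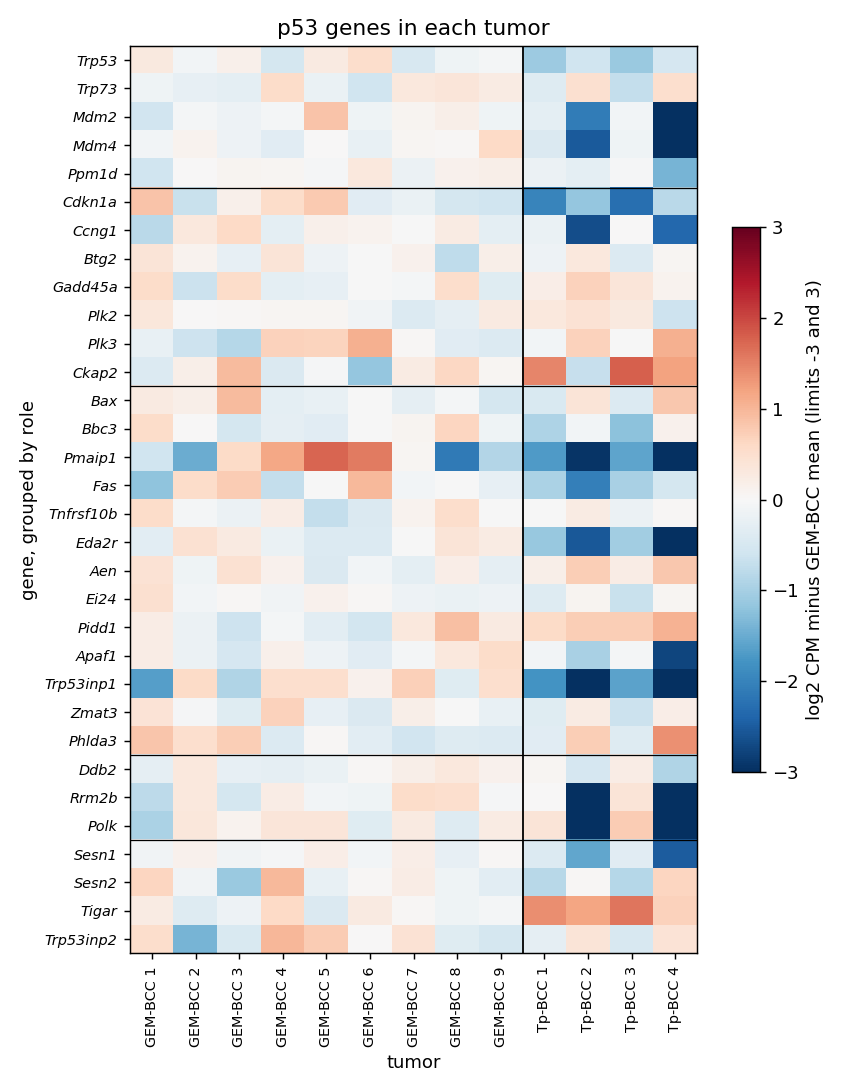
Log2 CPM minus the GEM-BCC mean (color, limits at -3 and 3) of the 32 tested p53 genes (vertical axis, grouped by role) in each of the 13 tumors (horizontal axis). Mdm2, Mdm4, Ccng1, Rrm2b and Polk are lowest in Tp-BCC 2 and 4, while Cdkn1a and Trp53 are lowest in Tp-BCC 1 and 3.

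The p53 genes varied about as much within a model as other genes did. Among GEM-BCC tumors their median SD of log2 CPM was 0.40, against 0.44 over all tested genes, and among Tp-BCC tumors 0.64 against 0.58. Tumors of one mouse could differ widely: Pmaip1 was higher by 2.06 log2 units in GEM-BCC 3 than in GEM-BCC 2 and differed by -2.18 between GEM-BCC 8 and 7, and Trp53inp1 differed by -1.48 and -1.09 in the respective pairs.

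Other genes of the pathway were read from 3 further lists. Of 29 regulators outside the list above, 28 were in the table and tested, and 3 (10.7%, against 19.4% of all genes) had an adjusted p under 0.05, all higher in Tp-BCC: Kmt5a, a histone and p53 lysine methyltransferase (log2 fold change 0.70, edgeR adjusted p = 0.0114), Trim28, a corepressor that works with Mdm2 (0.90, adjusted p = 0.023), and Hipk2, a kinase that phosphorylates p53 (1.72, adjusted p = 0.0292). Kmt5a was higher in every Tp-BCC tumor than in any GEM-BCC tumor, and Trim28 and Hipk2 overlapped. Of the 28, Kmt5a was the only 1 without overlap, where 9.95% of all tested genes did not overlap. Kmt5a passed whichever Tp-BCC pair was left out. Trim28 did not pass without Tp-BCC 2 and 4 (0.20, adjusted p = 0.588, range over alternatives 0.000601 to 0.591) or without Tp-BCC 2 (0.80) or 4 (0.51) alone. Hipk2 did not pass with either pair left out (1.87 without Tp-BCC 2 and 4 and 1.57 without Tp-BCC 1 and 3, adjusted p = 0.0854 and 0.0769, range 0.00973 to 0.283), nor without Tp-BCC 1 (1.66), 2 (1.61) or 3 (1.69) alone. Its call was also lost with counts summed per mouse (1.58, edgeR adjusted p = 0.0611). The median over the 28 was -0.04 with all tumors and took either sign: with 1 tumor left out it ran from -0.19 (without Tp-BCC 3) to 0.087 (without Tp-BCC 2), and it was 0.19 without Tp-BCC 2 and 4, -0.43 without Tp-BCC 1 and 3 and 0.13 with the GC correction. Without Tp-BCC 1 and 3, 15 passed (53.6%, against 42.9% of all genes), 5 higher and 10 lower, and with the GC correction 8 (28.6%, the share of all genes).

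Of 30 further targets, 29 were tested, of which 5 were higher (background 11.1%) and 4 lower (background 8.35%) in Tp-BCC, together 31.0% of the list against 19.4% of all genes. Their median was -0.08, and -0.18 (without GEM-BCC 1) to 0.041 (without GEM-BCC 2) with 1 tumor left out. Klf4, an epidermal transcription factor, was higher (1.57, edgeR adjusted p = 5.72e-05), as were Gtse1, which carries p53 out of the nucleus (2.00, adjusted p = 0.000395), Steap3, a metalloreductase (1.55, adjusted p = 0.00164), and Trp53i11 (1.496, adjusted p = 0.0203). Thbs1, which encodes the matrix protein thrombospondin 1 (-2.12, adjusted p = 0.000951), and Tgfa, a ligand of the EGF receptor (-2.37, adjusted p = 0.00384), were lower. Trp53i11 overlapped between the models and the other 5 did not, but these genes were picked for the smallest adjusted p. Of the 29 targets, 3 lay below and 3 above GEM-BCC without overlap, where 9.95% of all tested genes did not overlap. Trp53i11 did not pass without Tp-BCC 2 and 4 (0.85, adjusted p = 0.308, range over alternatives 0.00543 to 0.464), nor without Tp-BCC 2 (1.27) or 4 (1.26) alone, and Steap3 did not pass without Tp-BCC 2 and 4 (0.91, adjusted p = 0.0662, range 2.68e-05 to 0.229). Of the 29, 8 passed without Tp-BCC 2 and 4 (27.6%, against 10.4% of all genes), 2 higher and 6 lower. Without Tp-BCC 1 and 3, 14 passed (48.3%, against 42.9% of all genes), 8 higher and 6 lower. With the GC correction, 11 passed (37.9%, against 28.6% of all genes), 5 higher and 6 lower. When genes without a value were set to 0, all 30 were tested and 10 passed (33.3%, against 19.8% of all genes), 5 higher and 5 lower.

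The last list held 25 cell cycle genes known to be repressed when p53 induces p21, through the DREAM complex. With all tumors, all 25 had a positive fold change, with a median of 1.04 against -0.03 over all tested genes, and 13 (52%) passed the test, all higher, where 19.4% of all genes passed. Plk1, a mitotic kinase, stood at 11.7 to 61.2 CPM in GEM-BCC and 118.9, 224.3, 99.9 and 243.7 CPM in Tp-BCC 1 to 4, a log2 fold change of 2.27 ± 0.35 (SE; edgeR adjusted p = 0.000498). Aurka (1.91), Mybl2 (1.92), Cdc20 (1.59), Foxm1 (1.63) and Aurkb (1.46), regulators of mitosis and its transcription, were higher in every Tp-BCC tumor than in any GEM-BCC tumor. These genes were picked for the smallest adjusted p. Of the 25, 8 lay above GEM-BCC without overlap, where 9.95% of all tested genes did not overlap in either direction. Foxm1 and Aurkb did not pass without Tp-BCC 2 and 4 (1.240 and 1.197, adjusted p = 0.0549 and 0.0635, ranges over alternatives 4.72e-05 to 0.116 and 0.000233 to 0.152).

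The common direction of this list did not hold in every Tp-BCC tumor. All 25 fold changes were positive without Tp-BCC 2 and 4, and 12 passed (48.0%, against 10.4% of all genes). In the fit without Tp-BCC 1 and 3, 16 were positive and 9 negative, and of the 14 that passed (56.0%, against 42.9% of all genes) 12 were higher and 2 lower. Those 2 were Top2a, a topoisomerase (-2.05, edgeR adjusted p = 0.00773, range over alternatives 0.00773 to 0.983), and Cenpf, a kinetochore protein (-2.52, adjusted p = 0.00319, range 0.00319 to 0.863). With the GC correction 22 of the 25 passed, all higher, against 28.6% of all genes. With it, 12 passed without Tp-BCC 2 and 4 (48%, against 10.8% of all genes), all higher. With it and without Tp-BCC 1 and 3, 14 passed (56%, against 30% of all genes), all higher. In that last fit 22 were positive and 3 negative, Top2a (-0.62), Mki67 (-0.30) and Cenpf (-1.08), and none of these 3 passed.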

How the data were processed

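Poly(A) RNA of 13 tumors was sequenced. Per the submitters' processing notes and the study's methods, the authors aligned reads with Bowtie2 2.3.4.3 to GRCm39 and deposited expected counts per gene from RSEM 1.3.1. The deposited expected counts were rounded to whole numbers, and genes without a value in some tumors were left out, which left 16687 of 21100 genes. Of the genes left out, 1932 had a value in GEM-BCC 1 and none in Tp-BCC 4. The edgeR 4.0.16 (R 4.3.3) quasi-likelihood F test, 2-sided, with TMM factors, robust dispersions and no covariate, was run on each gene that reached 10 counts in 4 or more tumors. Adjustment was by Benjamini-Hochberg across the 14390 genes so tested. CPM values use TMM library sizes, and log2 CPM a prior count of 2. Alternatives were DESeq2 1.42.0, other scaling and filters, counts summed per mouse, tumors left out, and offsets with each tumor's trend (lowess, span 0.3) on the GC content or length of GENCODE vM21 transcripts, which 99.2% of tested genes had. Others were a block on tumor number, fitted to tumors 1 to 4 of each model, and genes without a value set to 0. The fits were tested on simulated data. Replicates are tumors, and 9 GEM-BCC tumors came from 7 mice, so p-values treat tumors of one mouse as independent. The 4 Tp-BCC tumors descend from 1 GEM-BCC tumor, so the tests cannot tell the transplanted model from that 1 lineage.

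Named genes were all p53 genes by role, with full statistics for Trp53, Mdm2, Cdkn1a, Ccng1 and each one with adjusted p under 0.05, and from each further list up to 6 genes with the smallest adjusted p under 0.05. The members and lists were chosen with earlier results of these data known. Mdm4, Apaf1, Bbc3, Rrm2b, Polk, Ckap2, Top2a, Cenpf and Mki67 were singled out for their values after these were seen. Promoter windows came from RefSeq on GRCm38.p6. Each edgeR SE was taken as the absolute log2 fold change divided by the square root of its F statistic. Intervals and SEs cover the spread between these tumors only.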

Additional observations from a re-analysis of the deposited data

Results flagged for a closer look

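In 80 groups of values, one model's tumors for each p53 gene, marker list and total count, 6 had a highest or lowest tumor that stood apart from the nearest other by more than Dixon's limit (log2 CPM for genes), and chance alone is known to give about 1 in 20. Mdm4 was highest in GEM-BCC 9, at 240.1 CPM, against 170.0 CPM in the next tumor. Ei24 was highest in GEM-BCC 1, at 246.5 CPM, against 195.6 CPM. Plk2 was lowest in Tp-BCC 4, at 54.0 CPM, against 102.2 CPM. The summed markers of immune cells (340.4 CPM) and of skeletal muscle (156.9 CPM) were highest in Tp-BCC 4, and those of adipocytes (82.0 CPM) in Tp-BCC 2. The part of these cells in the differences between models was not tested.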

How the results depend on the processing

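Of 896 alternative values of single p53 genes, 768 kept their direction and their side of the threshold, 29 lost a call, 37 gained one and 62 changed sign, none of them in a gene called with all tumors. The GC correction with a Tp-BCC pair left out was added after the data were seen. Causes were not tested. Tp-BCC libraries were the shallower ones, which limits low-count genes such as Pmaip1, Eda2r and Polk.

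The share of all tested genes that passed was 19.4% with all tumors, 42.9% without Tp-BCC 1 and 3, 28.6% with the GC correction, 30% with both, 24.1% with the length correction and 10.8% to 21.1% with 1 tumor left out. Against 7 p53 genes, 15 passed without Tp-BCC 1 and 3, 12 with the GC correction, 14 with both and 2 at an absolute log2 fold change above 2 (5.57% of all genes). With 1 tumor left out, 5 p53 genes (without Tp-BCC 4, 12.8% of all genes) to 8 passed (without GEM-BCC 1, 3 or 8, with 20.3%, 21.1% and 17.8% of all genes). Against 3 regulators, 15 passed without Tp-BCC 1 and 3, 8 with the GC correction, 5 with the length correction and 11 with the GC correction without Tp-BCC 1 and 3, and 2 to 4 with 1 tumor left out. Against 9 further targets, 14 passed without Tp-BCC 1 and 3, and 6 to 10 with 1 tumor left out. Against 13 genes of the p21 and DREAM list, 22 passed with the GC correction, and 10 to 13 with 1 tumor left out. The median log2 fold change of the p53 genes, -0.23, was -0.014 without Tp-BCC 1 and 3, -0.37 with the GC correction, -0.36 with it and without Tp-BCC 2 and 4, and -0.33 to -0.18 with 1 tumor left out. Trp53 was -0.58 without Tp-BCC 1 and 3, and -1.01 to -0.75 with 1 tumor left out.

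The tumor numbers are shared between models but only name tumors. Same-numbered tumors did not deviate together (r = -0.381, -0.122, -0.101 and -0.179 across genes, which are not independent replicates). With the replicate block, fitted in edgeR to tumors 1 to 4 of each model, 179 of 13742 genes (1.3%) passed, and of the lists 0 p53 genes (5 at an unadjusted p under 0.05), 0 regulators, 1 further target and 0 genes of the p21 and DREAM list. With this block the median was -0.34, Trp53 -0.81, Trp73 -0.00604, Plk2 -0.00720, Bax -0.21, Phlda3 -0.11 and Trp53inp2 0.051. DESeq2 was not run with the block.

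Signs changed in these log2 fold changes of genes that did not pass with all tumors. Without Tp-BCC 2 and 4, the values were -0.58 for Trp73, -0.20 for Plk3, -0.50 for Bax, -0.47 for Phlda3, 0.12 for Ddb2, 0.14 for Rrm2b and 0.52 for Polk. Without Tp-BCC 1 and 3, they were 0.17 for Btg2, -0.0084 for Plk2, 0.10 for Tnfrsf10b, 0.054 for Ei24, 0.17 for Zmat3, 0.27 for Sesn2 and 0.24 for Trp53inp2. With the GC correction, they were -0.35 for Trp73, 0.16 for Btg2, -0.0097 for Plk3, -0.25 for Bax, 0.28 for Tnfrsf10b, 0.053 for Ei24 and 0.41 for Zmat3. With it and without Tp-BCC 2 and 4, they were -0.43 for Trp73, -0.042 for Plk3, -0.32 for Bax, -0.22 for Phlda3, 0.079 for Ddb2 and 0.30 for Polk. With it and without Tp-BCC 1 and 3, they were -0.28 for Trp73, 0.54 for Btg2, -0.18 for Bax, 0.20 for Fas, 0.66 for Tnfrsf10b, 0.51 for Ei24 and 1.04 for Zmat3, of which Zmat3 passed (adjusted p = 0.0136, range over alternatives 0.0136 to 0.991). With the length correction, they were 0.10 for Btg2, 0.13 for Tnfrsf10b, 0.42 for Zmat3 and 0.044 for Sesn2. Trp73 was -0.10 with library size alone, and Tnfrsf10b was 0.012 with counts per mouse. With 1 tumor left out, Trp73 ran from -0.21 to 0.22, Btg2 from -0.22 to 0.057, Bax from -0.23 to 0.28, Tnfrsf10b from -0.12 to 0.052, Zmat3 from -0.30 to 0.0051, Phlda3 from -0.052 to 0.65 and Trp53inp2 from -0.29 to 0.051.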
